A study of Drosophila melanogaster with 7 samples.

Results

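The proteasome is the protease that degrades ubiquitin-tagged proteins in the cytosol and nucleus, and its subunit and cofactor genes were followed here in Drosophila embryos mutant for lola isoform K. Members were the array features with exactly 1 gene symbol that begins with Prosalpha, Prosbeta or Prosap, with Rpn or Rpt and a digit, or with Pros and a digit, or that is REG, Uch-L5, PI31, p47, Ubqn or TER94. This gave 46 features for 42 genes, of 10376 features on the arrays, of which 8598 had exactly 1 gene symbol. The features were cDNA clones and are given by gene and, where a gene had more than 1, by clone name.

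Each of 7 two-colour spotted cDNA arrays was hybridized with RNA of lolaORC4 mutant embryos and RNA of control embryos collected at the same time, so that every array held 1 independent matched pair. The mutants carried lolaORC4 on both copies of the chromosome, which was recombined with sca-GAL4 on one copy and with UAS-tau-eGFP on the other, in a w1118 background. The controls had sca-GAL4 over UAS-tau-eGFP in w1118 with no lola mutation, so both groups shared the driver and the reporter. Embryos were 10 to 12 hours old and were picked by hand for GFP in the central nervous system, and each RNA sample came from about 300 embryos. lola encodes a family of BTB zinc finger transcription factors by alternative splicing, and lolaORC4 inactivates isoform K alone. As a model the mutant rests on 1 lola allele, and effects of lola cannot be told apart from those of other differences on the chromosome that carries it. RNA was taken from whole embryos, so fewer cells of a type and less RNA per cell cannot be told apart, and because the deposited values are ratios, levels of tissue markers could not be set against the labels.

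The core particle of the proteasome is a barrel of stacked rings, with outer rings of alpha subunits that gate the entrance and inner rings of beta subunits, of which beta1, beta2 and beta5 cut peptide bonds. The regulatory particle that caps it has a base, made of the ATPases named Rpt with the large scaffolds Rpn1 and Rpn2 and ubiquitin receptors, and a lid of further Rpn subunits with the deubiquitinase Rpn11. Cells make the subunits together, and the insect and vertebrate genes are known to be activated as a group by Cnc and related factors when proteasome activity falls. Drosophila males also use duplicated subunit genes in the testis, whose names carry a T or R after that of the subunit.

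By class, 13 features with 13 genes belonged to the core (7 to alpha subunits and 6 to beta subunits), 9 features with 7 genes to the base, 6 features with 6 genes to the lid, 10 features with 10 genes to the paralogs, and 6 features with 5 genes to regulators and cofactors. The last 2 features were of Prosap, a scaffold protein gene that met the rule by its letters and is no proteasome gene, and neither it nor the cofactors are proteasome subunits. Prosbeta1, Rpt1, Rpt6, Rpn10, Rpn6, Rpn9 and Ubqn had no feature with a single gene symbol and were not analysed here. Of 14 kinds of core subunit 13 were thus measured.

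The values are log2 ratios of the 2 samples of a pair, and their sign is given as deposited. All 21 pairs of arrays correlated positively over all features (Pearson r 0.06 to 0.72), so the arrays run the same way, but the labels and the methods do not settle which way: per the labels, Cy3 marked the mutant on 3 arrays and Cy5 on the other 4, and the methods count the dyes the other way round. The study describes spir as a gene that lola holds down. Both spir clones were negative on 7 of 7 arrays as deposited (means -1.58 for GH13327 and -1.15 for SD10157), so if spir moves the same way in lolaORC4, a negative value below means more RNA in the mutants. Since this was not settled, results are given as positive or negative.

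A feature was called where its mean over the 7 arrays differed from 0 in limma's two-sided test, with p-values adjusted over the 10376 features and a threshold of 0.05. Over the whole series 793 features were called, or 7.64%, of which 463 were positive (4.46%) and 330 negative (3.18%), and 2271 had an unadjusted p under 0.05. The median SD of a feature over the arrays was 0.14, the array medians lay between -0.010 and 0.018, and 46.5% of all features had a positive mean.

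Among the proteasome and cofactor features 2 of 46 were called, against the 7.64% of all features, and both encode core subunits. Prosalpha1 was negative on every array and Prosbeta2 positive on every array. Without a call, 7 further features had an unadjusted p under 0.05, so that 9 of the 46 members did, against 2271 of all 10376 features. The remaining members were close to 0: of the 44 features not called, 32 had a 95% interval that lay within 0.2 of 0 on the log2 scale, against 5916 of the 9583 features not called over all features. The means of 33 members were positive and those of 13 negative, with a median of 0.027, against a median of -0.0067 over all features. No member apart from Prosalpha1 had a mean farther than 0.20 from 0.

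**Figure D1:**
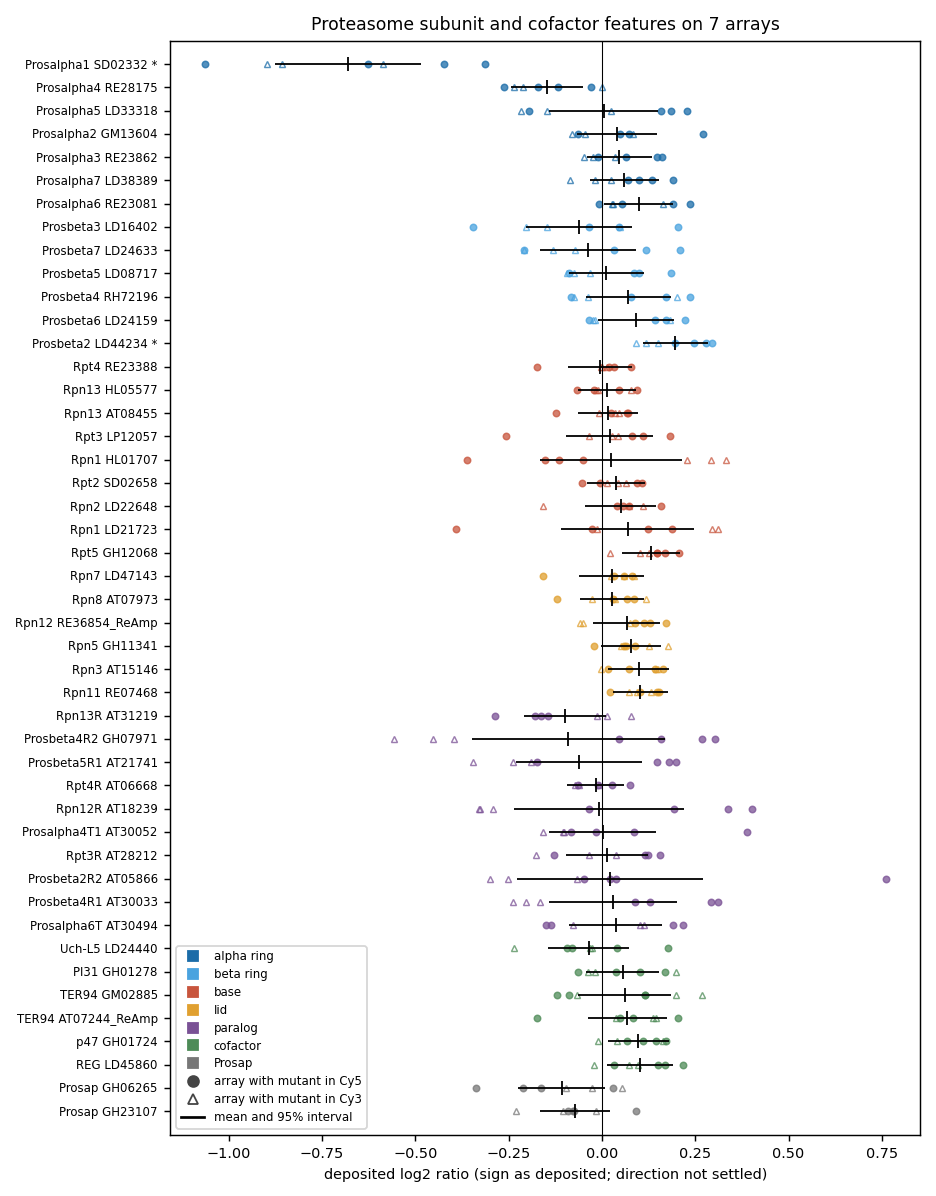
Deposited log2 ratio (x axis) of each of the 46 features (rows, grouped by class and ordered by mean) on the 7 arrays, with filled circles for arrays with the mutant in Cy5, open triangles for arrays with the mutant in Cy3, and a black bar for the mean with its 95% interval. The 2 features marked with an asterisk were called; Prosalpha1 lies at a mean of -0.68 and Prosbeta2 at 0.20, while the other means lie within 0.15 of 0.

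The alpha ring held the largest value of the group. Prosalpha1 had -0.86, -0.31, -0.63, -0.90, -0.42, -0.59 and -1.06 on replicates 1 to 7, and was the lowest of all 46 features on 6 arrays and the 4th lowest on replicate 2. All 7 values thus lay below 0. Their mean was -0.68 ± 0.27 (SD, n = 7), with a standard error of 0.087, a 95% interval of -0.88 to -0.49, a 1.60-fold difference between the members of a pair and an adjusted p of 0.0017. Of all features 1.17% had a mean farther from 0. The means in the 2 dye orientations were -0.61 with the mutant in Cy5 and -0.78 with the mutant in Cy3. The call held in all 13 alternative fits with all or with 6 arrays, at adjusted p between 0.00074 and 0.0076.

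Prosalpha1 lies on the chromosome that carries lola and has a copy, Prosalpha1R, 2 genes further along in the reference gene order. No feature carried the symbol Prosalpha1R alone, and whether the Prosalpha1 clone also binds its transcript was not tested. The genes around Prosalpha1 were looked up after its value had been seen. Of the 6 genes on either side, 6 had a feature. Among them cathD, which encodes the lysosomal protease cathepsin D and stands 3 genes away, was called with the opposite sign (mean 0.57, standard error 0.045, adjusted p = 0.00019). The features of sax, TTLL12, puml, Dgk and CG30377 were not called (means -0.091 to 0.051, adjusted p between 0.233 and 0.672). Over the series 8.14% of the 3367 features placed on this chromosome were called, against 7.06% of the 5087 features placed elsewhere, and 22 of the 46 members lay on it.

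The other alpha subunits form the rest of the ring that gates the core. Prosalpha4 was negative on 7 of 7 arrays, between -0.26 and -0.00028 with a median of -0.17, and had the second lowest mean of the group at -0.15 ± 0.10 (SD, n = 7). It did not pass over all features (standard error 0.043, 95% interval -0.24 to -0.051, 1.11-fold, adjusted p = 0.0732). Prosalpha6 had -0.0082, 0.053 and 0.24 as its lowest, median and highest value and was positive on 6 of 7 arrays. Its mean was 0.099 with a standard error of 0.041 and an adjusted p of 0.199. Prosalpha7, Prosalpha3, Prosalpha2 and Prosalpha5 had means of 0.060, 0.046, 0.040 and 0.0049, and their values lay on both sides of 0. None of these 4 passed, with adjusted p between 0.459 and 0.977.

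Among the beta subunits Prosbeta2, which carries the trypsin-like activity of the core, was called. It had 0.15, 0.25, 0.28, 0.12, 0.30, 0.093 and 0.20 on replicates 1 to 7 and was the highest core feature on 6 of the 7 arrays. All 7 values were positive and none exceeded 0.30. The mean was 0.20 ± 0.080 (SD, n = 7), with a standard error of 0.038, a 95% interval of 0.11 to 0.28, a 1.15-fold difference and an adjusted p of 0.0143. Of all features 10.1% had a mean farther from 0, so this is a small value that varied little. The call was lost without replicate 3 (mean 0.18, adjusted p = 0.0518) and without replicate 5 (mean 0.18, adjusted p = 0.0521), and held in the other 11 of 13 alternative fits.

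Prosbeta5, the chymotrypsin-like subunit, was at 0.012 with a 95% interval of -0.088 to 0.11, and had 3 positive and 4 negative arrays. Prosbeta6, a subunit without catalytic activity, had values of -0.035, 0.14 and 0.22 (lowest, median and highest), a mean of 0.091, a standard error of 0.045 and an adjusted p of 0.283. The non-catalytic Prosbeta4 had values of -0.084, 0.079 and 0.24, a mean of 0.070 and an adjusted p of 0.484. Prosbeta3 and Prosbeta7 had means of -0.061 and -0.037 (adjusted p of 0.639 and 0.772). All of these means had intervals that include 0. Of the core means 9 of 13 were positive, with a median of 0.040, or 0.043 without Prosalpha1. The median core mean was 0.090 over the 4 arrays with the mutant in Cy5 and -0.026 over the other 3. The median of the core features was positive on replicates 2, 3 and 5 (mutant in Cy5) and negative on replicates 1 and 4 (mutant in Cy3). It was -0.084 on replicate 7, with the mutant in Cy5, and 0.035 on replicate 6, with the mutant in Cy3. The dye coefficient was called for 0 of the 13 core features. Its median over them was 0.10, against 0.0096 over all features. A dye effect shared by the core features was not tested. Without replicate 5 the core median was 0.0020 and without replicate 4 it was 0.060.

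The base unfolds substrates and threads them into the core. None of its 9 features was called, 8 of 9 means were positive, and their median was 0.025, or 0.053 without replicate 2 and 0.039 without replicate 7. The ATPase Rpt5 came nearest to a call. It was positive on 7 of 7 arrays with 0.022, 0.15 and 0.21 as its lowest, median and highest value, and its mean of 0.13 had a standard error of 0.035, a 95% interval of 0.054 to 0.21 and an adjusted p of 0.0504. Rpt5 passed with a dye coefficient (adjusted p = 0.0271), with quantile normalization (0.0463), with array weights (0.0417) and without replicate 6 (0.0458). It did not pass when any other array was left out (adjusted p between 0.084 and 0.136). Nor did it pass with median centring (0.0531), with the robust step (0.0512) or without features that lack a gene (0.0501). The other ATPases Rpt2, Rpt3 and Rpt4 had means of 0.038, 0.022 and -0.0049. Both clones of Rpn13, a ubiquitin receptor, had means near 0 (0.016 for AT08455 and 0.015 for HL05577), and differed from each other by at most 0.057 on any array.

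Rpn1 and Rpn2 are the large scaffolds of the base, and Rpn1 also docks ubiquitin shuttle proteins and the deubiquitinase Usp14. Rpn2 had -0.16, 0.072 and 0.16 as its lowest, median and highest value, with a mean of 0.050 (standard error 0.042, adjusted p = 0.554). Its single negative array was replicate 6. The Rpn1 clone LD21723 had -0.39, 0.12 and 0.31, with a mean of 0.069 and an adjusted p of 0.678, and its mean was 0.15 without replicate 2 and 0.029 without replicate 1. The clone HL01707 had -0.36, -0.049 and 0.33, with a mean of 0.025 and an adjusted p of 0.906. These were the widest spreads in the base, and both clones were lowest on replicate 2. The clones differed by up to 0.34 on an array, with a median difference of 0.12. HL01707 separated by dye, with a mean of -0.17 over the arrays with the mutant in Cy5 and 0.28 over those with the mutant in Cy3.

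The lid removes ubiquitin chains as substrates enter. None of its 6 features was called, all 6 means were positive (0.026 to 0.10), and their median was 0.072. Rpn11, the metalloprotease that cuts off the chain, was positive on 7 of 7 arrays, between 0.021 and 0.15 with a median of 0.10. Its mean of 0.10 had a standard error of 0.033 and an adjusted p of 0.0981. Rpn3, a structural subunit of the horseshoe that holds the lid together, had values of -0.0015, 0.14 and 0.16 (lowest, median and highest), a mean of 0.098, a standard error of 0.036 and an adjusted p of 0.148. Rpn5, of the same horseshoe, had values of -0.022, 0.064 and 0.18, a mean of 0.078, a standard error of 0.035 and an adjusted p of 0.237. Both thus had 1 array below 0. Rpn12, Rpn8, the partner of Rpn11, and Rpn7 had means of 0.067, 0.027 and 0.026 (adjusted p between 0.385 and 0.766). Sem1, a small lid subunit that the symbol rule does not take in, was at 0.15 and 0.13 in its 2 clones, which differed by at most 0.078 on an array and were not called (adjusted p of 0.115 and 0.188).

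Over core, base and lid together 23 of 28 means were positive. Between arrays the core features moved together. Their medians on replicates 1 to 7 were -0.045, 0.10, 0.086, -0.085, 0.17, 0.035 and -0.084, and on these arrays 3, 10, 10, 2, 11, 8 and 3 of the 13 features were positive. Replicates 1, 4 and 7 were thus the arrays below 0, and they include both dye orientations. The lid medians were positive on all 7 arrays (0.037 to 0.11), and those of the base lay between -0.0044 and 0.077. The SD of the median over arrays was 0.10 for the core, 0.035 for the base and 0.025 for the lid. The core median exceeded that of the lid on replicates 2 and 5 and lay below it on the other 5, with differences of -0.16 to 0.070.

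**Figure D2:**
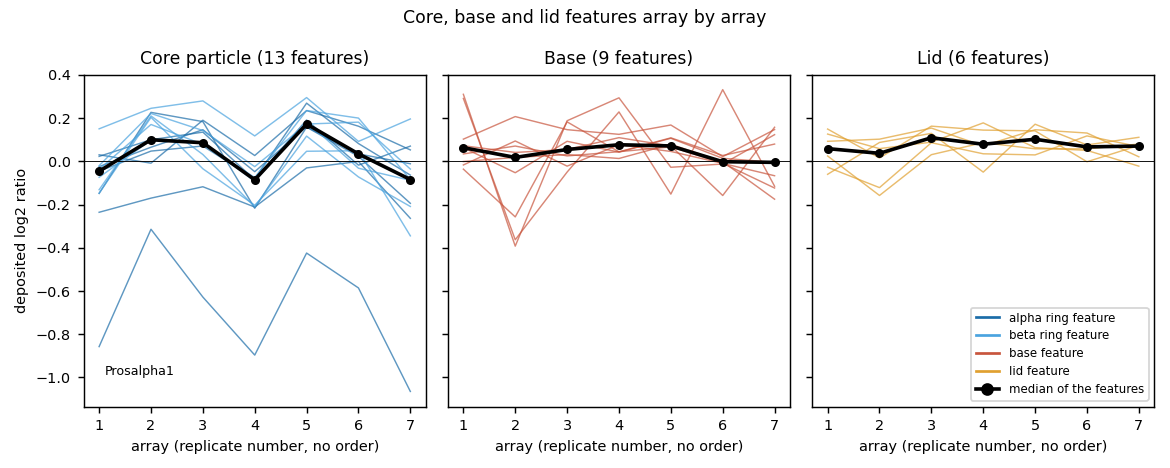
Deposited log2 ratio (y axis) of each core, base and lid feature on the 7 arrays (x axis, replicate numbers with no order), 1 thin line per feature and the median of each subcomplex as a thick black line. The core median swings between -0.085 and 0.17, with Prosalpha1 following the same course well below it, while the lid median stays between 0.037 and 0.11.

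Mean pairwise Pearson r between core features over the 7 arrays was 0.71, and all 78 pairs were positive (0.14 to 0.98). The 7 points share their RNA pair, array and dye orientation across features, so the coefficients are a description. Alpha features alone gave 0.69 and beta features 0.75, and the value was 0.69 for the core after the mean of each dye orientation had been subtracted, and 0.63 to 0.80 when each array in turn was left out. Prosalpha1 took part in this: it had r = 0.92 with the median of the other core features, and stayed below that median by 0.45 to 0.99 on every array (mean difference -0.72 ± 0.18, SD, n = 7). In the base mean r was 0.095, with 19 of 36 pairs positive, and in the lid 0.12, with 10 of 15 pairs positive. Over all features it was 0.0064.

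Strong co-variation was also found outside the proteasome, in complexes added after the data had been seen. Mean r was 0.42 over 47 features of cytosolic ribosomal proteins, 0.53 over 78 features of mitochondrial ribosomal proteins and 0.73 over 9 features of the CCT chaperonin, which folds actin and tubulin. The array medians of both sets of ribosomal proteins followed that of the core (r = 0.92 and 0.91), and that of CCT ran against it (r = -0.57). An r of at least 0.7 with the core median was found for 1350 of the 10376 features. Of the proteasome features outside the core, 0 of 9 in the base, 2 of 6 in the lid (Rpn11 and Rpn12), 3 of 10 paralogs (Rpt4R, Prosbeta5R1 and Rpn12R) and 2 of 6 cofactors (p47 and PI31) did so. The 2 clones of the lid subunit Sem1, which the symbol rule does not take in, had r of 0.76 and 0.80.

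**Figure D3:**
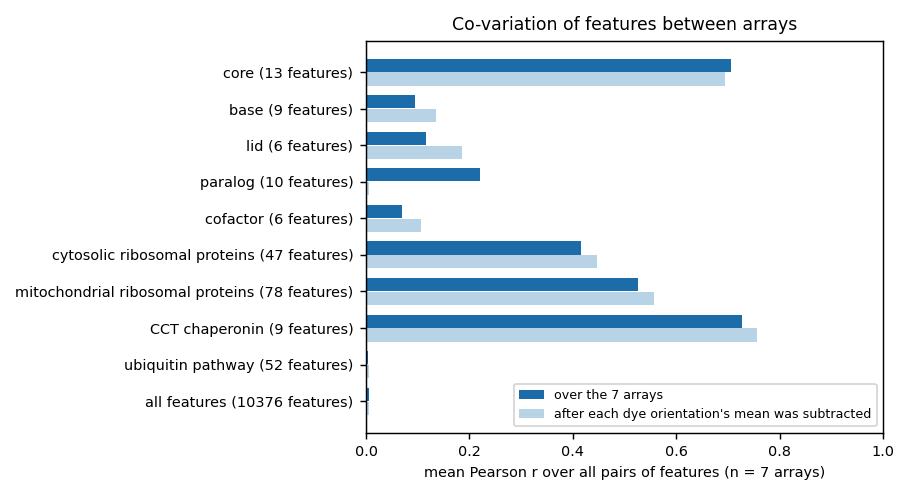
Mean Pearson r over all pairs of features within a set (x axis) for each class of members, for complexes used for comparison, for the ubiquitin pathway and for all features (rows), with dark bars for r over the 7 arrays and light bars after the mean of each dye orientation was subtracted. Core features have 0.71, close to the CCT chaperonin at 0.73, while base and lid have 0.095 and 0.12, and paralogs have 0.22 over the arrays and 0.0064 with dye orientation subtracted.

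The paralogs, duplicates of subunit genes known mainly for expression in the male germ line, had no called feature among 10. Of their means 5 were positive and 5 negative, with a median of -0.0028. They varied more than the other classes, with a median SD over arrays of 0.21 against 0.14 over all features. Rpn13R had -0.29, -0.14 and 0.077 as its lowest, median and highest value (mean -0.099, standard error 0.049, adjusted p = 0.283). Prosbeta4R2 had -0.56, 0.046 and 0.30 (mean -0.090, standard error 0.11, adjusted p = 0.717), and Prosbeta5R1 had -0.35, -0.17 and 0.20 (mean -0.060, standard error 0.075, adjusted p = 0.708). Values of both signs thus occurred in each. The means of Prosalpha6T, Prosbeta4R1, Prosbeta2R2, Rpt4R, Rpt3R, Rpn12R and Prosalpha4T1 lay between -0.016 and 0.037.

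For several paralogs the sign of the mean followed the dye orientation. The coefficient for dye orientation, fitted over all features, was called for 1099 features of the series (10.6%) and for 4 of the 46 members, of which 3 were paralogs. Prosbeta4R2 had a mean of 0.19 over the arrays with the mutant in Cy5 and -0.47 over those with the mutant in Cy3 (dye coefficient, adjusted p = 0.0023). Prosbeta4R1 had 0.21 and -0.20 (adjusted p = 0.0114) and Rpn12R 0.22 and -0.32 (adjusted p = 0.0144), in the same order of dyes. All 3 had a positive mean with the mutant in Cy5, though Rpn12R was at -0.036 on replicate 7. The fourth was Rpn1 HL01707, with the opposite order of signs (adjusted p = 0.012). In all, 20 of the 46 members, 9 of the 10 paralogs among them, had means of opposite sign in the 2 orientations. The share of all features with opposite signs was not counted, so these counts are a description only.

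**Figure D4:**
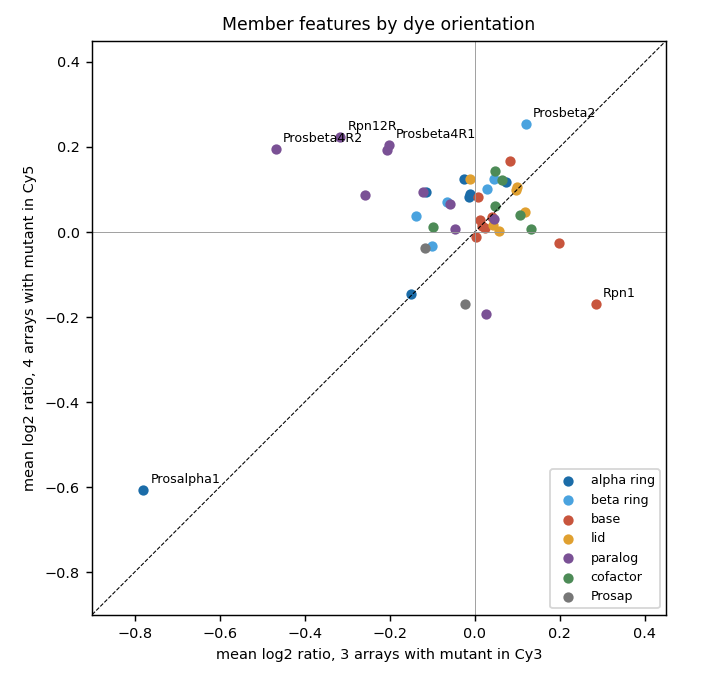
Mean deposited log2 ratio of each member feature over the 4 arrays with the mutant in Cy5 (y axis) against that over the 3 arrays with the mutant in Cy3 (x axis), coloured by class, with the line of equality dashed. Prosalpha1 (-0.61 and -0.78) and Prosbeta2 (0.25 and 0.12) keep their sign, while Prosbeta4R2, Prosbeta4R1, Rpn12R and an Rpn1 clone lie in the quadrants of opposite sign.

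Regulators and cofactors had no called feature among 6, with 5 of 6 means positive and a median of 0.065. REG, an activator that binds the ends of the core in place of the regulatory particle, had -0.022, 0.096 and 0.22 as its lowest, median and highest value (mean 0.10, standard error 0.039, adjusted p = 0.16). p47, an adaptor of the unfolding ATPase TER94, had -0.012, 0.11 and 0.17 (mean 0.098, standard error 0.036, adjusted p = 0.149). Each was positive on 6 of 7 arrays. TER94 itself, the fly p97, had means of 0.069 (AT07244_ReAmp, adjusted p = 0.459) and 0.061 (GM02885, adjusted p = 0.585), and its clones differed by at most 0.14 on an array. PI31, a regulator that binds the core, had a mean of 0.055, and Uch-L5, a deubiquitinase docked on Rpn13, of -0.035 (adjusted p of 0.519 and 0.738). The Prosap clones were at -0.11 and -0.071 (adjusted p of 0.271 and 0.372).

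The rest of the ubiquitin pathway was read from a list of 60 symbols that covers ubiquitin genes, conjugating enzymes, ligases, deubiquitinases, shuttles, the core assembly factor Pomp and the regulators cnc, maf-S and Keap1. Of these 44 genes were found, with 52 features, and 3 of the 52 features were called, 1 positive and 2 negative, against 7.64% of all features (4.46% positive and 3.18% negative). In all 21 means were positive and 31 negative, with a median of -0.013, and mean pairwise r was 0.0043. This list holds several genes that act on the proteasome itself.

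Usp14, the deubiquitinase that binds Rpn1 and trims chains at the proteasome, was called negative. It had -0.38, -0.14, -0.59, -0.58, -0.58, -0.40 and -0.78 on replicates 1 to 7, all below 0. The mean was -0.50 with a standard error of 0.069, a 95% interval of -0.65 to -0.34, a 1.41-fold difference and an adjusted p of 0.0025, and the call held in all 13 alternative fits. Its sign was that of Prosalpha1 and opposite to that of Prosbeta2.

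Pomp, the chaperone on which new core particles are assembled, was called positive, with -0.011, 0.46, 0.16, 0.25, 0.49, 0.39 and 0.32 on replicates 1 to 7, so 6 of 7 arrays were above 0. Its mean was 0.30 (standard error 0.061, adjusted p = 0.0189), and the call was lost without replicate 5, 6 or 7, at adjusted p of up to 0.0602. Nedd4, a ubiquitin ligase of membrane proteins, was negative on all 7 arrays, between -0.23 and -0.055, with a mean of -0.16 (standard error 0.034, adjusted p = 0.0236). That call was lost without replicate 1, 3, 5 or 7, at adjusted p of up to 0.0789. Genes that did not pass include Keap1, the adaptor that holds Cnc in check (mean -0.26, adjusted p = 0.060), and the F-box gene slmb. The slmb clone LD08669 had a mean of -0.22 (adjusted p = 0.0589) and the clone GM02031 one of -0.071 (adjusted p = 0.410). cnc itself did not pass either and was positive on 7 of 7 arrays (mean 0.18, adjusted p = 0.0856). Its r with the core median was -0.92, the lowest in this list, where r ran up to 0.95 with a median of -0.16. Over all features r lay between -0.99 and 0.99. The share of all features with an r this low was not counted. maf-S was at 0.052 (adjusted p = 0.661). Whether Cnc activity differed was not tested.

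**Figure D5:**
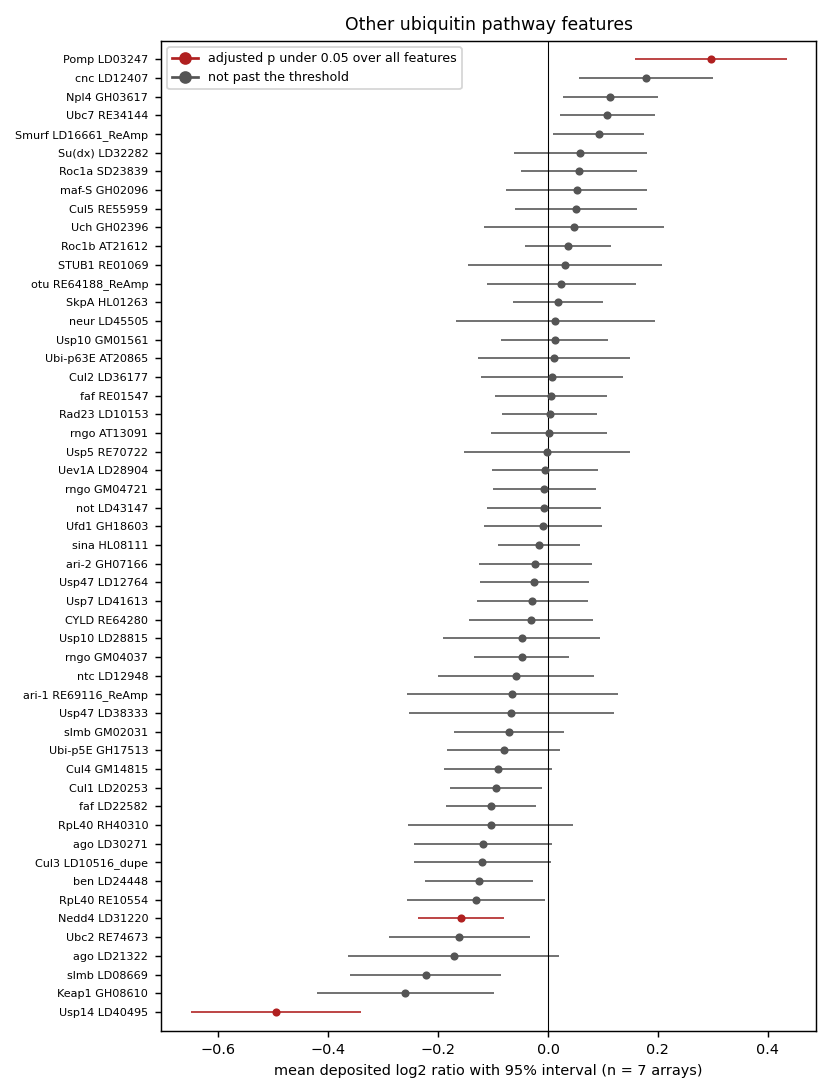
Mean deposited log2 ratio over the 7 arrays with its 95% interval (x axis) for the 52 features of the ubiquitin pathway list (rows, ordered by mean), with called features in red. Pomp at 0.30 stands at the positive end and Usp14 at -0.50 at the negative end, with Nedd4 at -0.16 the remaining call.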

How the data were processed

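The authors took spot intensities from GenePix into limma (version not given in the sources used here) and subtracted no background. Print-tip loess was applied within each array and scale normalization between arrays, and the deposited values are log2 ratios, 1 for each feature on each array. No value was missing. Each array is the ratio of a matched pair, so pairing needs no further term. Features were named from the platform annotation, checked against a RefSeq gene table of Release 6 plus ISO1 MT, which was used for names and gene order. Of 10376 features, 8598 had 1 gene symbol, 517 several, which are not named, and 1261 none.

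limma 3.58.1 in R 4.3.3 (lmFit, eBayes) tested each feature's mean over the 7 arrays against 0, with Benjamini-Hochberg adjustment over all features (0.05), and was tested on simulated data. Intervals are 95%. A second fit held a dye coefficient. The number of arrays limits the precision. Members, classes and lists were chosen with earlier results of these data known, so lists carry no test. All members are named, with fuller statistics for those called and the 3 largest means of each class. Alternatives were a dye coefficient, median centring, quantile normalization, weighted arrays, a robust empirical Bayes step, omission of each array or of the features without a gene, other thresholds and averaging the features of a gene. Fits of each dye orientation alone were added after the data had been seen. Promoter sequences were not used here.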

Additional observations from a re-analysis of the deposited data

Results flagged for a closer look

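Of 51 features examined for a sample far from the others, the 46 members among them, 5 had a highest or lowest array whose gap to the next, divided by the range over the 7 arrays, exceeded Dixon's 95% critical value, and chance flags about 1 in 20. Rpn7 had -0.16 on replicate 2, with 0.025 as its next value (ratio 0.748). Prosbeta2R2 had 0.76 on replicate 3, with 0.037 next (ratio 0.683). Rpt4 had -0.17 on replicate 7, with -0.0014 next (ratio 0.683). Rpn2 had -0.16 on replicate 6, with 0.042 next (ratio 0.631). Rpn13 in clone AT08455 had -0.12 on replicate 7, with -0.0084 next (ratio 0.591). None of the 5 was called.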

How the results depend on the processing

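Of the members 2 features were called with all arrays, and leaving out each array in turn gave between 1 (without replicate 3 or 5) and 3 (without replicate 6). The count was 1 at an adjusted p under 0.01 and 5 under 0.1, where Prosalpha4, Rpn11 and Rpt5 joined. It was 3 with a dye coefficient, with quantile normalization, with array weights and over genes, through Rpt5, and 2 with median centring, with the robust step and without features that lack a gene. In the fits added after the data had been seen it was 5 on the 3 Cy3 mutant arrays (Prosalpha1, Prosbeta4R2, Prosbeta5R1, Rpn1 HL01707 and Rpn12R) and 2 on the 4 Cy5 mutant arrays. Of the 15 member features followed through the alternatives, signs turned for Rpn13R with Cy3 mutant arrays alone (0.026) and with Cy5 mutant arrays alone for Prosbeta5R1 (0.088), Prosbeta4R2 (0.19) and Rpn1 LD21723 (-0.027); the cause was not tested. Over all features the calls numbered 441 to 810 with an array left out, 1234 with a dye coefficient, 313 under 0.01, 1229 under 0.1 and 1125 with Cy3 mutant arrays alone, against 793. Leaving out each array moved the median of the core (0.040) to between 0.0020 and 0.060, that of the base (0.025) to between 0.018 and 0.053, and that of the lid (0.072) to between 0.065 and 0.079. That of the base was 0.046 with array weights, 0.038 with a dye coefficient, with quantile normalization and over genes, and 0.013 with Cy5 mutant arrays alone, and that of the core was -0.026 with Cy3 and 0.090 with Cy5 mutant arrays alone.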
